A study of Mus musculus with 2 samples.

Results

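The genes described here are 44 regulators of the mouse cell cycle: cyclins, cyclin-dependent kinases (CDKs), the phosphatases and kinase that switch CDKs on and off, CDK inhibitors, pocket proteins, E2F factors and a few genes tied to cell-cycle exit or entry. They were chosen by gene symbol from textbook roles, and all 44 were found among the 55536 genes of the deposited tables. The samples were neural tubes of strain B6NCrl embryos at embryonic day 12.5, healthy, with males and females pooled. Replicate 1 was a pool of 120 embryos and replicate 2 a pool of 88, so the study has 1 group of 2 libraries and no treated or mutant group. Polyadenylated RNA was primed with oligo-dT from 10 ng of total RNA, amplified with a kit for very low input, cut by tagmentation and mixed with ERCC spike-in RNAs. The labels name no step that keeps the strand, so reads of a gene and of one that overlaps it on the opposite strand cannot be told apart.

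A cell divides when cyclins, which come and go through the cycle, switch on their CDK partners. D-type cyclins with Cdk4 or Cdk6 begin to phosphorylate the pocket protein Rb in G1, which frees E2F factors to turn on the genes of S phase. E-type and A-type cyclins with Cdk2 then carry the cell through S phase, and B-type cyclins with Cdk1 drive mitosis. In the embryonic neural tube, dividing progenitors line the central canal while newborn neurons leave the cycle and move outwards, so a bulk library holds cells of both kinds.

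The libraries held 33529531 estimated counts in replicate 1 and 35461403 in replicate 2, of which 2.99% and 2.89% fell on spike-ins. At a transcript length of 1 kb, 1 read corresponded to 0.0478 TPM (replicate 1) and 0.0462 TPM (replicate 2), where TPM is the deposited abundance per length, scaled to the same sum in each library. Markers of the labelled tissue were present: all 7 neural progenitor markers, all 7 neuron markers and all 5 spinal Hox genes reached 1 TPM in each library. The libraries also held RNA of other cells, with all 5 markers each of erythroid cells, mesenchyme, skeletal muscle, endothelium and sensory ganglion and 4 of 5 macrophage markers at 1 TPM or more, and no marker at 0. In such bulk RNA, fewer cells of a type and less RNA per cell cannot be told apart.

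Promoter stretches are shown for 5 regulators because the levels below are grouped by the phase in which a gene acts, and promoters of S-phase and of mitotic genes are known for different elements. E2F elements are known from S-phase genes, and CCAAT boxes and the CHR element TTTGAA from genes of G2 and mitosis. RefSeq promoters on build GRCm38.p6, 250 bases before to 50 bases after a gene's start, were matched for 32 of the 44 genes. Each stretch runs 5′ to 3′ on the gene's own strand from 200 bases before the start to 15 bases from it, and capitals mark every match, on either strand, to the CCAAT box, to the CHR letters TTTGAA or to an E2F form (TTTCCCGC, TTTCGCGC, TTTGCCGC or TTTGGCGC). The mitotic genes Ccnb1 (chr13:100786472-100786686, minus strand), Ccnb2 (chr9:70421540-70421754, minus strand) and Cdk1 (chr10:69352898-69353112, minus strand) come first, then the S-phase entry gene Cdc25a (chr9:109875379-109875593, plus strand) and Mycn (chr12:12941822-12942036, minus strand).
Ccnb1: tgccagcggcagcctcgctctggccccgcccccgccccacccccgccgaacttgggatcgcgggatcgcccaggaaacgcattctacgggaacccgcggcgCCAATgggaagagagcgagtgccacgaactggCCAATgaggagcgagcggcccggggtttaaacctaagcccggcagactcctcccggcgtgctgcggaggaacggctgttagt
Ccnb2: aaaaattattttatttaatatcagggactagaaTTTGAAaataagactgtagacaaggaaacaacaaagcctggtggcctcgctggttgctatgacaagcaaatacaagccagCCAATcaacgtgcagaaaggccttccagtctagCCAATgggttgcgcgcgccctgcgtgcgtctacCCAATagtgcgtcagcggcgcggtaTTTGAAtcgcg
Cdk1: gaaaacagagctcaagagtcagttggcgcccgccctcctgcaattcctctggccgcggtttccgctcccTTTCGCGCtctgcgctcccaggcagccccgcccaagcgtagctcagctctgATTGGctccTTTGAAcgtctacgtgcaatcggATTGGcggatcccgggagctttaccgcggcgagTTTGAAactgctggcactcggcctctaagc
Cdc25a: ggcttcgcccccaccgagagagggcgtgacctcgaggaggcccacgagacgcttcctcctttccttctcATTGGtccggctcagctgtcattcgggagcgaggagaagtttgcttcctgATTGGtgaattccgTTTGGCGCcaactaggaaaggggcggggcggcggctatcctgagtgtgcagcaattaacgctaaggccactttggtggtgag
Mycn: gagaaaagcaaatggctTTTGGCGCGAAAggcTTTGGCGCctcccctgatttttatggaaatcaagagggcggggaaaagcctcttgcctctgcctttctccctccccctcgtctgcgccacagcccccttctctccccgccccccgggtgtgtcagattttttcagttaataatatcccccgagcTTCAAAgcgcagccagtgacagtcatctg
The Ccnb2 stretch holds 3 CCAAT boxes, first bases at -87, -54 and -21 from the start, and TTTGAA at -167 and 5. The Cdk1 stretch holds CCAAT on the opposite strand at -80 and -48, TTTGAA at -71 and -15 and an E2F form at -131. Ccnb1 holds CCAAT at -99 and -67 and no match to the letters TTTGAA or to the E2F forms listed. The start used lay 84 bases from that of the most abundant coding transcript for Ccnb1, and 78 bases for Mycn. Cdc25a holds an E2F form at -67 and CCAAT on the opposite strand at -131 and -81. Mycn holds E2F forms at -183, -179 and -168, the first of these overlapping the second on opposite strands, and TTTGAA on the opposite strand at -14. Among the 32 matched regulator promoters 8 held an E2F form, against 2.26% of all 32851 promoters of the table. CCAAT stood in 19 of the 32, against 37.4% of all, and TTTGAA in 7 of the 32, against 17.9% of all. Of the matched promoters not printed, those of Ccne1 and E2f1 held none of these motifs. That of Cdc25b held CCAAT alone, and that of Cdk2 held CCAAT and an E2F form. A match is a run of letters and was not tested as a binding site, and other forms of these elements were not searched.

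Nearly every regulator was present. At 1 TPM or more in both libraries stood 42 of 44, where 60.9% of the 22028 protein-coding genes did. At 10 TPM or more stood 37 of 44, where 41.7% of protein-coding genes did, and at 100 TPM or more 8 of 44, where 7.30% did. The median regulator was at 32.3 TPM in replicate 1 and 34.4 TPM in replicate 2, beside medians of 21.3 and 22.0 TPM over expressed protein-coding genes. The 2 regulators below 1 TPM were the INK4 inhibitor genes Cdkn2a and Cdkn2b. In the order of mean level, 26 of the 43 neighbouring pairs had ranges over the libraries that stood apart and 17 overlapped.

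**Figure D1:**
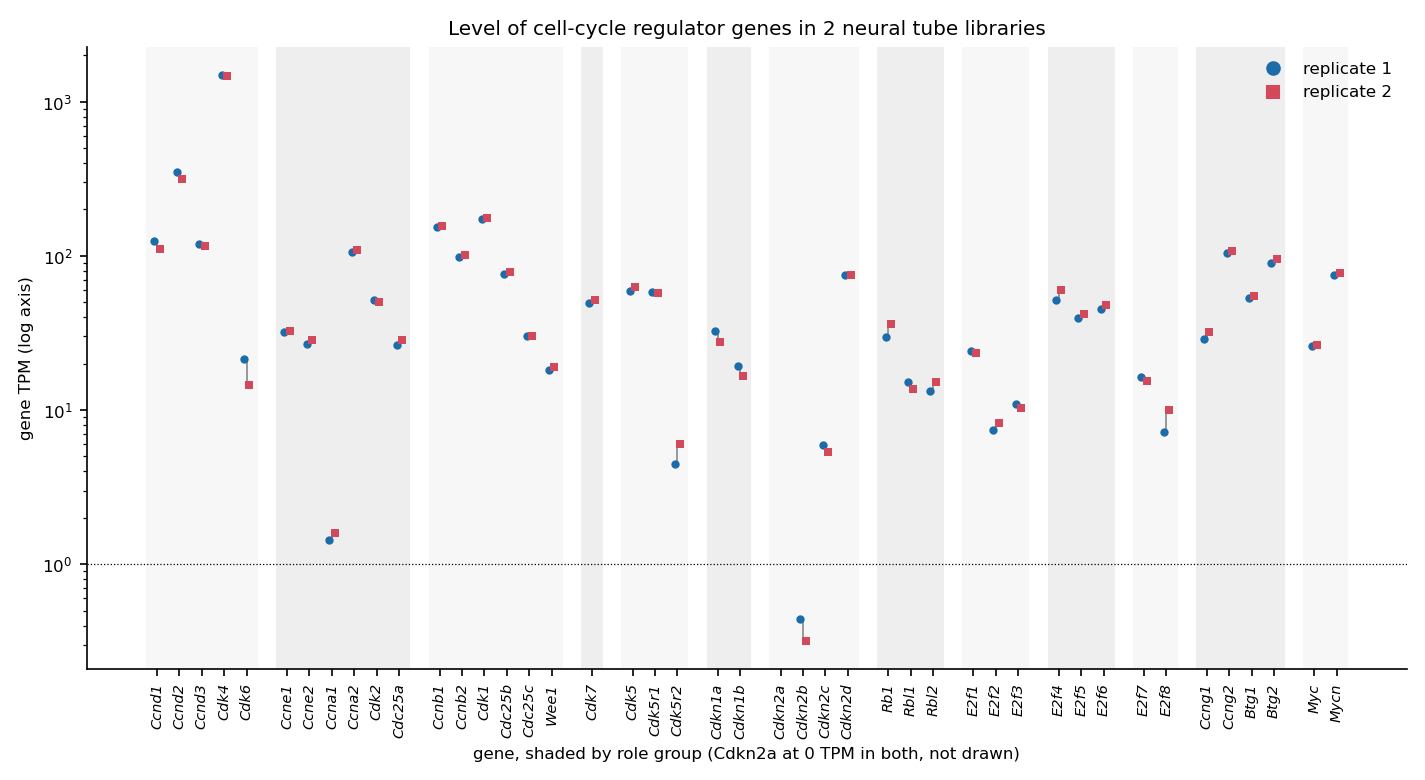
Level of each of the 44 regulators as gene TPM on a log axis, with replicate 1 as circles and replicate 2 as squares, shaded by role group. Cdk4 has the highest mean, 1474 TPM, the dotted line marks 1 TPM, and of the genes drawn Cdkn2b alone lies below it.

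Of the 5 G1 regulators, 4 were above 100 TPM in both libraries by gene TPM, with the kinase gene Cdk4 far above the rest and Cdk6 well below them. Cdk4 (ENSMUSG00000006728.12, chr10:127063534-127067920) encodes the main catalytic partner of D cyclins and stood at 1484 TPM in replicate 1 and 1464 TPM in replicate 2, or 1474 ± 13.6 TPM (SD, n = 2, as for every mean that follows). Its relative Cdk6 was at 21.5 and 14.6 TPM, a log2 ratio of replicate 2 over replicate 1 of -0.56, against -0.26 by scaled counts. Cdk4 thus exceeded Cdk6 by 6.38 ± 0.384 on the log2 scale, and by 4.65 when transcripts annotated as protein-coding alone were counted. Among the D cyclins, which carry growth signals into the cycle, Ccnd2 (ENSMUSG00000000184.12, chr6:127125162-127152193) was at 348 and 315 TPM. Ccnd1 was at 124 and 110.2 TPM and Ccnd3 at 119 and 115 TPM. Ccnd2 lay above the others in both libraries, whereas Ccnd1 was above Ccnd3 in replicate 1 and below it in replicate 2. The lead of Ccnd2 over Ccnd1 turned around with the older M4 annotation, at a log2 ratio of -0.56, and on the longest coding transcript of each gene, at -0.17. Below 100 TPM in both libraries were Ccnd2 by M4, at 84.9 and 78.6 TPM, and Ccnd1 on coding transcripts alone, at 63.4 and 56.2 TPM. Opposite-strand genes share exon bases with Cdk4 and Ccnd1: Tspan31, at 115 and 108 TPM, covers 19.7% of the exon bases of Cdk4, and LTO1, at 27.1 and 28.9 TPM, covers 23.4% of those of Ccnd1.

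The genes of S-phase entry and S phase had a lower median level than those of G1, and the A-type cyclin of dividing cells stood highest among them. Ccna2, whose cyclin serves Cdk2 in S phase and Cdk1 in G2, was at 105 and 109.96 TPM. Ccna1, known as the germ-cell A cyclin, was low, at 1.44 and 1.59 TPM, from 28 and 35 counts. The E cyclins were close to each other, with Ccne1 at 32.0 and 32.5 TPM and Ccne2 at 27.0 and 28.7 TPM, and Ccne1 was above Ccne2 by 0.21 ± 0.046 on the log2 scale. Cdk2, the kinase they bind, was at 51.5 and 50.5 TPM. The phosphatase gene Cdc25a, which removes the inhibitory phosphates from Cdk2 and Cdk1, was at 26.5 and 28.7 TPM. None of these 6 genes was called different between the libraries with TMM scaling of the M21 counts, but Cdc25a was called higher in replicate 2 with spike-in scaling (log2 ratio 0.16, binomial adjusted p = 0.0032) and by M4 (0.12, adjusted p = 0.0499). Ints8 covers 17.4% of the exon bases of Ccne2 on the opposite strand and Exosc9 covers 12.5% of those of Ccna2.

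By gene TPM the mitotic regulators were led by Cdk1, the kinase that drives entry into mitosis, at 174 and 176 TPM. Its B-type partners followed, with Ccnb1 at 155 and 156 TPM and Ccnb2 at 98.3 and 100.7 TPM. On coding transcripts alone Ccnb1 led, at 144.3 and 141.7 TPM, against 114.5 and 103.7 TPM for Cdk1. Ccnb1 exceeded Ccnb2 by 0.64 ± 0.018 on the log2 scale and Cdk1 exceeded Cdk2 by 1.78 ± 0.035. The CDC25 phosphatase genes were unequal: Cdc25b, which starts Cdk1 activation in G2, was at 75.9 and 78.5 TPM. Cdc25c was at 30.1 and 30.3 TPM. Cdc25b exceeded Cdc25a by 1.49 ± 0.044 and Cdc25c by 1.35 ± 0.027 on the log2 scale. Wee1, the kinase that opposes CDC25 by phosphorylating Cdk1, was the lowest of this group at 18.1 and 19.0 TPM.

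Cdk7, the kinase that phosphorylates the activation loop of other CDKs, was at 49.7 and 51.6 TPM. Cdk5 belongs to the CDK family by sequence but serves mainly postmitotic neurons, where it is switched on by p35 and p39. Cdk5 was at 59.0 and 62.5 TPM and the p35 gene Cdk5r1 at 58.1 and 57.7 TPM. The p39 gene Cdk5r2 was far lower, at 4.47 and 5.98 TPM, or below Cdk5r1 by 3.49 ± 0.303 on the log2 scale.

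The CDK inhibitors among the 44 ran from 0 TPM to the 74.9 TPM mean of Cdkn2d. Of the Cip/Kip family, which binds cyclin-CDK complexes, Cdkn1a (p21) was at 32.6 and 27.5 TPM and Cdkn1b (p27) at 19.4 and 16.6 TPM. The third gene of that family, Cdkn1c (p57), is known for marking cells that leave the cycle and was listed among the partners rather than among the 44. It stood at 1040 and 1051 TPM, above Cdkn1b by 5.87 ± 0.172 on the log2 scale. Of the INK4 family, which binds Cdk4 and Cdk6 alone, Cdkn2d (p19) was at 75.2 and 74.6 TPM and Cdkn2c (p18) at 5.89 and 5.33 TPM, a difference of 3.74 ± 0.093 on the log2 scale. Cdkn2b (p15) had 12 counts in replicate 1 (exact 95% Poisson interval 6.20 to 20.96) and 9 in replicate 2 (4.12 to 17.1), or 0.44 and 0.32 TPM. Cdkn2a (ENSMUSG00000044303.6, chr4:89274471-89294653), which encodes the senescence proteins p16 and p19Arf, had 0 counts in both libraries on both of its transcripts, Cdkn2a-201 and Cdkn2a-202. By the common bound of 3 counts for a gene with no read, up to 0.185 TPM in replicate 1 and 0.179 TPM in replicate 2 could be missed, and the exact two-sided interval used for Cdkn2b would reach 3.69 counts, so Cdkn2a was not detectable at this depth. These limits and intervals cover counting error only.

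Pocket protein genes were of moderate level. Rb1, the retinoblastoma gene, was at 29.8 and 36.3 TPM. Rbl1 (p107) was at 15.1 and 13.6 TPM and Rbl2 (p130), known from resting cells, at 13.3 and 15.3 TPM. Rb1 was above both in each library, while Rbl2 was below Rbl1 in replicate 1 and above it in replicate 2.

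By gene TPM the repressor E2F genes stood above the activator and the atypical ones. The activators were at 24.1 and 23.6 TPM for E2f1, 7.42 and 8.18 TPM for E2f2, and 10.9 and 10.3 TPM for E2f3. The repressors, which work with Rbl1 and Rbl2 or without a pocket protein, were higher. E2f4 was at 51.7 and 59.7 TPM, E2f5 at 39.8 and 42.0 TPM and E2f6 at 45.3 and 47.8 TPM. The 3 repressors thus lay above the 3 activators in both libraries, with medians of 45.3 and 47.8 TPM against 10.9 and 10.3 TPM. When coding transcripts alone were counted, E2f6 stood at 22.1 and 21.7 TPM, below E2f1 at 24.1 and 23.6 TPM, so the classes overlapped. The atypical repressors, which bind DNA without a dimerisation partner, were low, with E2f7 at 16.4 and 15.4 TPM and E2f8 at 7.18 and 9.95 TPM. E2f7 was above the activators E2f2 and E2f3 in both libraries and below E2f1, so the atypical and activator classes overlapped by gene TPM.

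Genes linked to arrest and differentiation were well expressed. Ccng1 and Ccng2 encode G-type cyclins, of which Ccng2 is known from arrested cells. Ccng1 was at 28.7 and 31.9 TPM and Ccng2 at 104 and 107 TPM. The antiproliferative genes Btg1 and Btg2, the latter a known mark of progenitors that produce neurons, were at 53.1 and 54.8 TPM and at 89.5 and 95.02 TPM. Of the Myc genes, which drive growth and cycle entry, Mycn was at 74.9 and 77.9 TPM and Myc at 26.1 and 26.4 TPM. Mycn exceeded Myc by 1.54 ± 0.027 on the log2 scale, and by 1.52 on coding transcripts and 1.54 on the M4 annotation.

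When regulators were grouped by phase, the G1 group of 5 genes had the highest median, at 124 and 115 TPM. The G2/M group of 6 genes followed at 87.1 and 89.6 TPM, and the group of 6 genes for S-phase entry and S phase had 29.5 and 30.6 TPM. On the log2 scale the G2/M median exceeded the S median by 1.56 ± 0.008, the G1 median exceeded the S median by 1.99 ± 0.113, and the G1 median exceeded the G2/M median by 0.44 ± 0.105. Each difference was larger than its SD over the libraries. That SD measures how far the 2 pools agreed and not the spread of genes within a group. By mean gene TPM the groups overlapped. The G1 genes ran from 18.0 (Cdk6) to 1474 (Cdk4). The S genes ran from 1.515 (Ccna1) to 108 (Ccna2), and the G2/M genes from 18.6 (Wee1) to 175 (Cdk1). With 2 libraries no exact test can pass 0.05, so none was run. On coding transcripts alone the same 3 differences were 1.49, 2.00 and 0.52. When only the longest coding transcript of each gene was counted, the G2/M and S medians came within 0.05 of each other, since the longest transcript is a minor one in several genes. A median over a phase group counts genes and not cells, and it gives no share of cells in a phase. Among the other cycle genes below, 15 of replication and DNA synthesis had medians of 87.8 and 86.4 TPM. These stood above the 66.3 and 68.9 TPM of 15 mitosis genes, so the order of S and G2/M depended on the genes listed.

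Much of the TPM of some regulators was assigned to transcripts that are not annotated as protein-coding. The deposited transcript tables hold the percent of a gene's TPM that each transcript takes, an estimate with no interval. TPM is per length, so a short transcript can take a large share on few counts. The leading transcript was the same in both libraries for 42 of 43 regulators with reads, the exception being Cdkn2c. Its median share was 71.2% over those 43 genes, and it held 90% or more in both libraries for 12 of them and under 50% in both for 9. Of the 42 expressed regulators, Ccnd1, Cdk4, Rbl1 and E2f6 had 40% or more of their TPM on transcripts not annotated as coding in both libraries. These 4 are 9.52% of the 42, where 14.0% of 13414 expressed protein-coding genes met the same threshold. The median coding share was 97.1% over the regulators and 91.5% over expressed protein-coding genes.

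Cdk4 was the only regulator led by a transcript outside the coding class. Its leading transcript, Cdk4-209, is 468 bases long, is annotated as a retained intron and took 41.7% and 40.2% of the gene's TPM. Cdk4-208, annotated for nonsense-mediated decay, took 19.1% and 20.2%, and the coding Cdk4-205 took 19.8% and 18.4%. By estimated counts Cdk4-209 held 4784 and 4701, fewer than Cdk4-205 with 5245 and 4980. All coding transcripts of Cdk4 together reached 447 and 443 TPM, which still placed Cdk4 above every other regulator. On the longest coding transcript alone Cdk4 was at 110 and 123 TPM, below Ccnb1 at 135 and 134 TPM. In Ccnd1 the retained-intron transcript Ccnd1-202, of 470 bases, took 46.3% and 45.7%, beside 51.1% and 51.0% for the coding Ccnd1-201 of 3740 bases. Ccnd1-202 held only 447 and 404 estimated counts, against 4836 and 4435 for Ccnd1-201. In Cdk1 the coding Cdk1-202 took 64.8% in replicate 1 and 57.6% in replicate 2, with the retained-intron transcripts Cdk1-204 at 19.1% and 18.8% and Cdk1-203 at 14.0% and 21.2%. Rbl1-202, a retained-intron transcript, took 45.3% and 43.3% of Rbl1, and the decay transcript E2f6-204 took 36.6% and 38.6% of E2f6.

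Isoforms of the other regulators fell into a few patterns. Ccnb2-201, Wee1-201, Btg2-201, Ccng1-201, Cdk5r2-201 and Cdkn2b-201 took 100% in both libraries. Mycn-201 took 70.8% and 71.5% and Mycn-202 27.7% and 26.4%. Of E2f3, whose promoters make a long and a short protein, E2f3-201 took 78.4% and 74.1%, E2f3-204 took 13.9% and 20.8%, E2f3-203 took 7.72% and 5.11%, and E2f3-202 had 0 in both. Ccng2 was divided between Ccng2-201, at 49.9% and 47.2%, and Ccng2-202, at 35.3% and 39.5%. In Cdk6 the short Cdk6-203, of 697 bases, led at 31.2% and 43.6% on 84 and 82 counts. Cdk6-202, of 11525 bases, held 1228 and 1171 counts. The coding Rb1-201 took 64.6% and 69.3% of Rb1. Rb1-206, a processed transcript of 408 bases, took 24.4% in replicate 1 and 10.8% in replicate 2, on 47 and 26 counts. E2f8-201 took 43.4% and 60.5% and E2f8-202 took 41.3% and 21.2%, a difference between libraries that was not tested. Myc-201 and Myc-205 have the same length, 2338 bases, and the same TPM in each library, so the tables do not tell them apart.

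**Figure D2:**
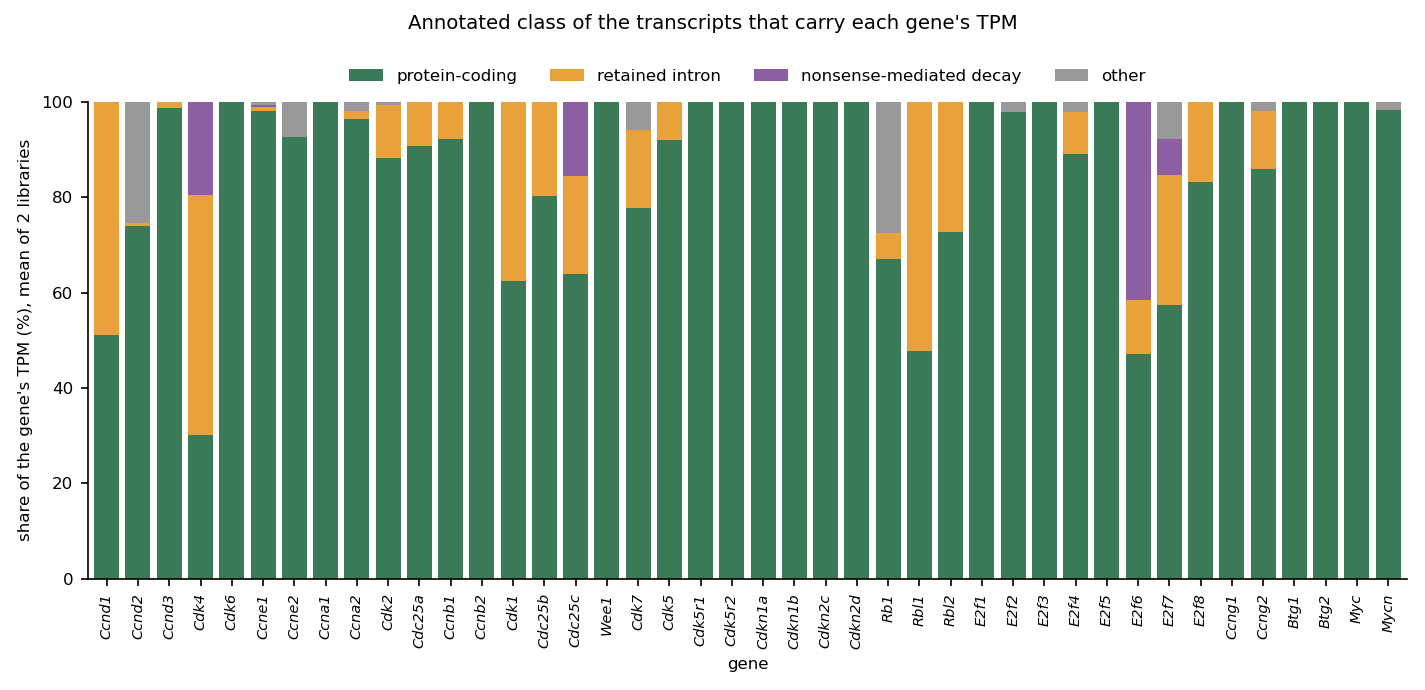
Share of each gene's TPM, in percent and as the mean of both libraries, that fell on transcripts of each annotated class, for the 42 regulators at 1 TPM or more in both libraries. Cdk4 has the smallest coding share, about 30.2%, and Ccnd1, Rbl1 and E2f6 stand near 50%.

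The release of the annotation decided some of the orders. In the older M4 tables Ccnd2 had a single transcript with reads, Ccnd2-201 of 6330 bases, and stood at 84.9 and 78.6 TPM. In the M21 tables Ccnd2-201 took 15.7% and 16.4%, while the short Ccnd2-206, of 627 bases, took 43.5% and 45.8% and Ccnd2-207, of 415 bases, took 24.96% and 24.1%. By estimated counts Ccnd2-201 held 7113 and 6970, against 1675 and 1648 for Ccnd2-206. Ccnd2 exceeded Ccnd1 by 1.501 ± 0.019 on the log2 scale in M21, by 2.03 on coding transcripts alone, and was below Ccnd1 by the M4 tables, where the log2 ratio was -0.56. Ccnd1 and Ccnd3 had a mean log2 ratio of 0.00 in M21, with opposite signs in the libraries, and of -0.95 on coding transcripts, with Ccnd3 higher in both. Cdk7 was at 13.4 and 14.2 TPM by M4, against 49.7 and 51.6 by M21. Cdk5 exceeded Cdk5r1 by 0.07 ± 0.064 in M21 and was below it on coding transcripts, at -0.05, and by M4, at -0.50. Rbl2 over Rbl1 had a log2 ratio of -0.01 ± 0.244 in M21, 0.60 on coding transcripts and 0.24 by M4. Cdk4 over Cdk6, Ccna2 over Ccna1, Cdk1 over Cdk2, Ccnb1 over Ccnb2, Cdkn2d over Cdkn2c and Mycn over Myc kept their sign on all 3 of these scales. On the longest coding transcript alone, which is a minor one in several genes, Cdk1 over Cdk2 had a log2 ratio of -2.67, Cdc25b over Cdc25a -1.49, Cdc25b over Cdc25c -1.15, Cdkn1a over Cdkn1b -4.71 and E2f1 over E2f2 -1.07, each against its sign on gene TPM.

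**Figure D3:**
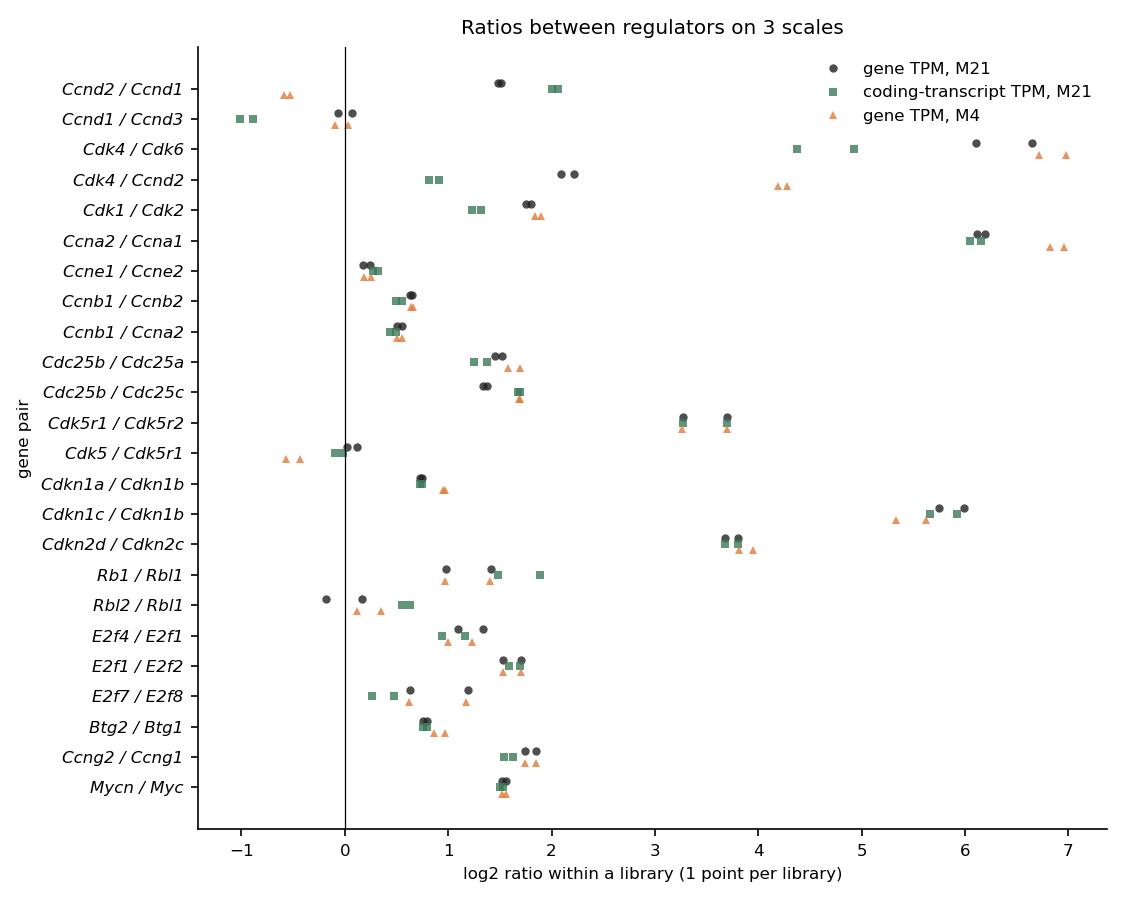
Log2 ratios between pairs of genes within a library, 1 point per library, from M21 gene TPM (circles), M21 coding-transcript TPM (squares) and M4 gene TPM (triangles). Ccnd2 over Ccnd1 lies right of 0 on both M21 scales and left of 0 by M4, and Mycn over Myc lies near 1.5 on all 3.

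Between the libraries, with TMM scaling, the D cyclins and their kinases, Cdk1 and both Cip/Kip inhibitors among the 44 were called lower in the pool of 88 embryos, and 4 genes were called higher. The test compared these 2 libraries only: an exact, two-sided binomial test on estimated counts, adjusted by Benjamini-Hochberg over 20125 genes, which covers counting error alone. Of 43 regulators tested, 12 were called at an adjusted p under 0.05, or 27.9%, where 20.3% of all genes tested were. Higher in replicate 2 were 4, where 10.5% of all genes were, and lower were 8, where 9.78% were. The remaining 31 were not called, and 17 regulators had an unadjusted p under 0.05. With the spread between libraries included, edgeR's exact test called 0 of the 43 and 1.13% of all genes. By that test 2 of the 43, Rb1 and Cdk5r2, had an unadjusted p under 0.05. Its biological coefficient of variation, 7.36%, was estimated from these same 2 libraries taken as replicates. The differences under test thus also set the spread they were judged against, so an absent call does not show an unchanged gene. The median log2 ratio of replicate 2 over replicate 1 was -0.0003 over the regulators and -0.0009 over all genes tested.

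All 5 genes of the G1 group were called lower in replicate 2 with TMM scaling, by small amounts. Ccnd1 went from 5396 to 4971 counts, with a log2 ratio of -0.21 (binomial adjusted p = 1.7e-11). Ccnd2 went from 10441 to 10054 counts at -0.14 (adjusted p = 6.3e-11), and Cdk6 from 1498 to 1334 counts at -0.26 (adjusted p = 4.6e-05). Ccnd3 at -0.08 (adjusted p = 0.048) and Cdk4 at -0.04 (adjusted p = 0.027) were near the threshold. Ccnd3 lost its call with DESeq2 size factors (adjusted p = 0.0509), and without the count filter Ccnd3 (adjusted p = 0.08) and Cdk4 (adjusted p = 0.0544) both lost theirs. With spike-in scaling, which raised the median of all genes to 0.055, Ccnd1, Ccnd2 and Cdk6 were still called lower. With it Ccnd3 was not called, at -0.02, and Cdk4 turned to 0.02 and was not called. Cdkn1a had a log2 ratio of -0.23 (adjusted p = 0.017) and Cdkn1b one of -0.22 (adjusted p = 0.0049); with spike-in scaling Cdkn1b was still called and Cdkn1a was not (adjusted p = 0.076). Cdk1 was lower by counts at -0.14 (adjusted p = 0.0013), though its gene TPM was slightly higher in replicate 2 and its coding TPM went from 115 to 104. With spike-in scaling Cdk1 was not called either (adjusted p = 0.076).

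Higher in replicate 2 were Cdk5r2 at 0.38 (binomial adjusted p = 0.011), E2f8 at 0.34 (adjusted p = 9.2e-04), Rb1 at 0.34 (adjusted p = 6.6e-13) and E2f4 at 0.16 (adjusted p = 0.0033). All 4 were called higher with every scaling and annotation tried for this test, and none by edgeR's exact test. Rb1 had 1922 and 2581 counts and E2f4 had 1937 and 2302. The exon bases of Rb1 overlap Rcbtb2 (8.11%) and Lpar6 (6.78%) on the opposite strand. Cdkn2b had the lowest log2 ratio of all, -0.42, on 12 and 9 counts, and was not called.

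Marker levels of other cells also differed between the pools. All 5 sensory ganglion markers were called higher in replicate 2, with a summed level of 200 TPM in replicate 1 and 281 TPM in replicate 2. All 5 skeletal muscle markers were called lower, with sums of 284 and 205 TPM. Neuron markers summed to 2255 and 2485 TPM, with 3 called higher and 1 lower of 7, and progenitor markers to 2826 and 2913 TPM, with 1 higher and 2 lower of 7. The part of these cell types in the differences between regulators was not tested.

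**Figure D4:**
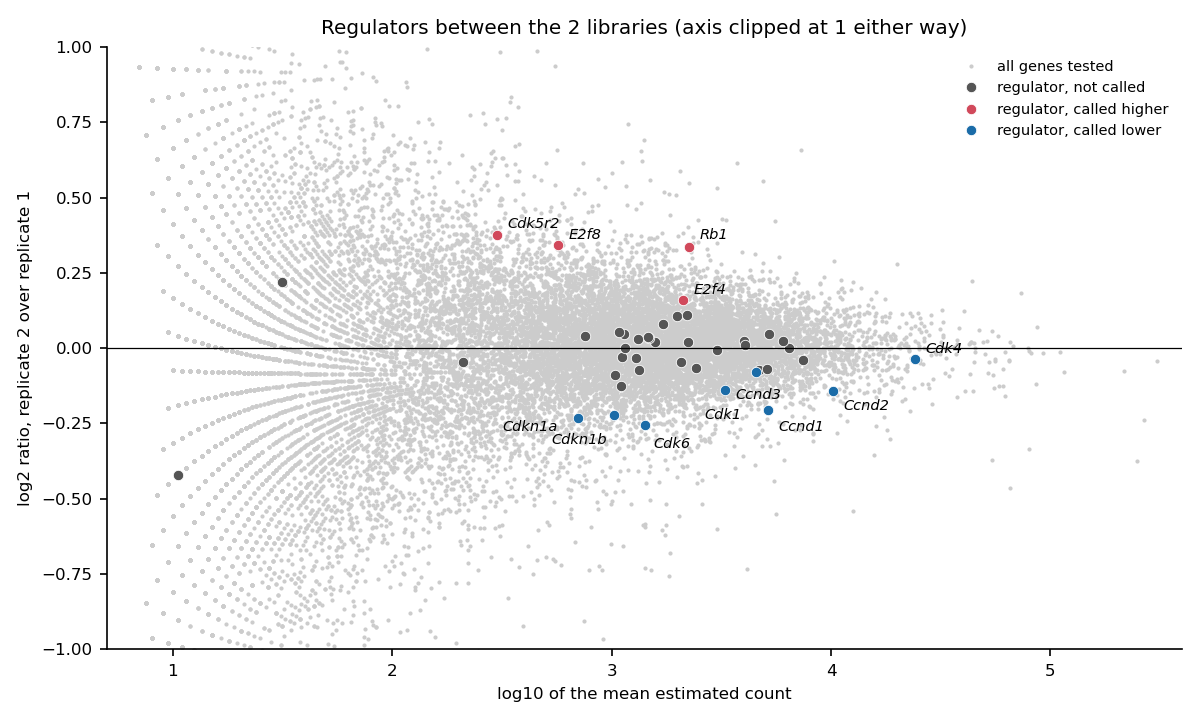
Log2 ratio of replicate 2 over replicate 1 against the log10 mean estimated count, for the regulators tested (large points) and all 20125 genes tested (small grey points). The 8 regulators called lower lie between -0.26 and -0.04 and the 4 called higher between 0.16 and 0.38, all within the cloud of all genes.

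Other genes of the cycle were taken from 3 lists chosen by textbook role. All 15 genes of replication origins and DNA synthesis were expressed, with medians of 87.8 and 86.4 TPM. The highest were Rrm2, a subunit of ribonucleotide reductase, at 205 and 206 TPM, the helicase gene Mcm7 at 154 and 156 TPM, and the polymerase clamp gene Pcna at 148 and 149.6 TPM. The lowest were the origin licensing genes Cdt1, at 20.3 and 17.95 TPM, and Cdc6, at 14.4 and 15.2 TPM. None of the 15 was called higher in replicate 2, 5 were called lower (Mcm2, Mcm5, Mcm6, Cdt1 and Tyms) and 10 were not called, with a median log2 ratio of -0.079. Over all genes tested 9.78% were called lower, and edgeR's exact test called none of these 5. With spike-in scaling 2 of the 15 were called higher and 0 lower.

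All 15 genes of mitosis and anaphase were expressed, with medians of 66.3 and 68.9 TPM. The highest by gene TPM were the centromeric histone gene Cenpa at 182 and 166 TPM, the topoisomerase gene Top2a at 152 and 149.8 TPM and Birc5, the survivin gene, at 143 and 132 TPM. On coding transcripts alone Birc5 led, Cdc20, an activator of the anaphase-promoting complex, followed at 135 and 124 TPM, and Cenpa had 22.7% and 24.9% of its gene TPM. The lowest by gene TPM were Mki67, the source of the Ki-67 proliferation antigen, at 24.5 and 22.7 TPM, and the separase gene Espl1 at 17.6 and 20.0 TPM. Of the 15, 7 were called lower in replicate 2, 0 higher and 8 were not called, with a median log2 ratio of -0.035. The share called lower over all genes tested was 9.78%, and edgeR's exact test called none of the 7. With spike-in scaling 4 of the 15 were called lower.

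All 22 partners and regulators of cyclin-CDK complexes and E2Fs were expressed. Behind Cdkn1c, the highest by gene TPM were Rbbp4, a histone-binding partner of Rb, at 367 and 356 TPM, and Cks1b, a small CDK-binding subunit, at 213 and 199 TPM. Rbbp4 had 24.8% and 29.6% of its TPM on coding transcripts, 91.1 and 105 TPM, and was below Cks1b on that scale. The lowest were Lin54, a DNA-binding subunit of the DREAM complex, at 9.34 and 11.6 TPM, and the Max partner Mnt at 6.09 and 7.08 TPM. Mnat1, which assembles the Cdk7 complex, Tfdp2, an E2F dimerisation partner, Rbbp4, and Mdm2, the p53 ubiquitin ligase, were called higher in replicate 2. Cks1b and Max were called lower and 16 were not called, where 10.5% of all genes tested were called higher and 9.78% lower. Mnat1 had the largest log2 ratio of the 6, 0.35 (binomial adjusted p = 9.8e-05). By edgeR's exact test neither Mnat1 (adjusted p = 0.587) nor any other of the 6 was called. With spike-in scaling 7 of the 22 were called higher and 1 lower.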

How the data were processed

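The 44 regulators and all gene lists were chosen with earlier results of these data known. Polyadenylated RNA of 2 neural tube libraries was quantified by the authors on mm10 against GENCODE M21 and M4; no aligner or quantifier is named in the labels or headers. The deposited tables, per the file headers, hold estimated counts, TPM and, for transcripts, a percent of the gene's TPM (IsoPct); reads shared between genes were divided by an estimate, and the posterior SD was at most 0.656% of a regulator's count. M21 was the main source. Genes and transcripts were named by ID from the M21 annotation, and promoters are RefSeq's.

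Levels are the deposited TPM, with mean and SD over 2 libraries, which the labels call biological replicates. For the comparison of libraries, the deposited estimated counts were rounded, scaled by TMM (edgeR 4.0.16, R 4.3.3) and kept at 10 or more in either library. The log2 ratio used a prior count of 2. The exact binomial test was run on simulated counts with counting error alone, which checks the code and cannot show how the test behaves under spread between pools. Alternatives were DESeq2 1.42.0 size factors and, with edgeR's common dispersion, its exact test. The code ran under Python 3.11.15 with scipy 1.17.1 for tests, pandas 2.3.3 and numpy 2.4.6 for tables and matplotlib 3.10.9 for figures. Named were all 44 regulators, transcripts that lead or hold 10% in both libraries, every transcript of Cdkn2a and E2f3, and from each other list the 3 highest, the 2 lowest and those called past 1.25-fold; the other called list genes and the overlapping genes were named after their values were seen, and some transcripts under this rule are left out of the text.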

Additional observations from a re-analysis of the deposited data

How the results depend on the processing

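The count of 42 expressed regulators lay between 39 and 42 under thresholds of 0.5 and 5 TPM, M4, posterior means, single libraries, coding transcripts alone and the longest coding transcript alone; the last 2 scales were chosen after seeing the data. The log2 ratio of the G2/M median over the S median was 1.506 with posterior means, 1.525 with a pseudocount of 1, 1.487 on coding transcripts and 0.048 on the longest coding transcript, on which G1 over S was 1.535 and G1 over G2/M 1.487. In single libraries the 3 ratios ran from 1.551 to 1.562, 1.914 to 2.074 and 0.364 to 0.512. The median leading share was 91.87% by M4 and 67.09% with posterior means, and 69.25% to 72.72% in single libraries. Of the 12 calls between libraries, 0 held with edgeR's exact test (0 higher, 0 lower), whose dispersion came from the same 2 libraries. Spike-in scaling called 13, of which 8 were among the 12, with 9 higher and 4 lower, and turned Cdk4 to 0.019. It added Btg2, Ccng1, Ccng2, Cdc25a and Cdk5, all higher, and lost Ccnd3, Cdk1, Cdk4 and Cdkn1a. M4 called 14, the 12 with Cdc25a and Cdk5r1 added. The median log2 ratio was 0.056 with spike-ins, -0.009 by M4 and 0.034 from TPM plus 1.

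Of the ratios with 1 sign in both libraries, these turned sign; Rbl2 over Rbl1 and Ccnd1 over Ccnd3 had opposite signs in the libraries on gene TPM and are left out. Ccnd2 over Ccnd1 was -0.555 by M4 and -0.171 on the longest coding transcript. Cdk5 over Cdk5r1 was -0.501 by M4, -0.053 on coding transcripts and -0.733 on the longest. On the longest coding transcript, Cdk1 over Cdk2 was -2.673, Cdc25b over Cdc25a -1.485, Cdc25b over Cdc25c -1.149, Cdkn1a over Cdkn1b -4.715 and E2f1 over E2f2 -1.069. These turns follow from counting different transcripts of the same genes. No paired analysis was possible because there is 1 group, and the comparison of libraries cannot leave one out. Depth limits Ccna1, Cdkn2a and Cdkn2b, which had 35 counts or fewer per library.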
